A study of Mus musculus with 6 samples.

Results

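The dystrophin-glycoprotein complex was examined through 8 of its genes, Dmd, Utrn, Dag1, Sgca, Sgcb, Sgcd, Dtna and Sspn, in the gastrocnemius (calf) muscle of male mice. Its members were chosen by name: every array probe whose RefSeq accession maps to one of these symbols was taken. This gave 15 probes of the 55669 with an unflagged spot on every array, and 8 genes of 20900 that could be tested. Of the 20900, 13844 have a symbol and the others stand under the name given on the array. Shares over all genes below include both. Total RNA of 3 young mice (13 weeks of age) and 3 aged mice (26 months of age) was hybridized, 1 sample per array, to Agilent mouse arrays read in a single colour. The study's methods name the strain C57BL/6J, with standard diet, and no allele or agent was given to either group, so the groups differ by age. The samples are numbered 1 to 3 at each age and are called mice below. The labels do not say that each came from a separate animal, but the study's methods give 3 male mice in each group for the arrays. The p-values measure the spread between these samples.

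The complex spans the membrane of the muscle fibre. Inside the fibre, dystrophin holds filamentous actin at one end and dystroglycan at the other. Outside, the sugar chains of α-dystroglycan bind laminin of the basement membrane, and the sarcoglycans and sarcospan stabilise that link. Dystrobrevins and syntrophins bind dystrophin on the inner side and carry signalling proteins. Loss of dystrophin or of a sarcoglycan causes muscular dystrophy, and utrophin, the close relative of dystrophin, can take its place at the membrane and is normally concentrated at the neuromuscular junction.

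None of the 8 members passed the test between aged and young mice. The largest increase in mean was that of Dtna (1.80-fold) and the largest decrease that of Utrn (0.774-fold), and in both the aged and young mice overlapped. The difference in Dmd was 1.03-fold. In limma, with Benjamini-Hochberg adjustment over all 20900 genes and a threshold of 0.05, 0 of 8 members were called against 53 genes in all (0.254%), 41 of them higher (0.196%) and 12 lower (0.0574%) in aged mice. In the same fit over all 28002 probes kept, 0 of 14 member probes were called, against 0.268% of all probes. At an unadjusted p under 0.05 the count was also 0 of 8, against 14.4% of all genes. Under some alternatives this unadjusted count was 1 of 8. The gene was lower with median scaling or without aged mouse 1, and higher without young mouse 1. The mean was lower in aged mice for 5 members and higher for 3, one of which (Sgcd) differed by 0.00 on the log2 scale, and 56.8% of all genes had a lower mean. That split moved with the scaling, to 7 lower and 1 higher when arrays were scaled to their median and to 6 and 2 after quantile normalization. The median log2 difference of the members was -0.14 against -0.06 over all genes. With 3 mice against 3, the smallest p that an exact permutation test can give is 0.1.

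Levels are given below as log2 of the processed signal over the 75th percentile of the same array, so a level of 1 lies at 2 times that percentile. A level belongs to its probe and is not set against that of another gene, since probes differ in how strongly they bind. A difference is aged minus young on the same log2 scale, with its 95% interval from limma. In whole muscle, fewer cells of a type and less RNA per cell cannot be told apart. The arrays were alike in sensitivity, with 48.7% to 53.8% of probes well above background and 0 saturated spots. As a check of the tissue, 9 of 10 fibre genes could be tested, among them Ckm at 9.41 to 10.05, Acta1 at 9.14 to 10.07 and Ttn at 8.42 to 8.69. All 6 arrays lay on 1 slide, with the 3 young mice and aged mouse 1 in row 1 and aged mice 2 and 3 in row 2.

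**Figure D1:**
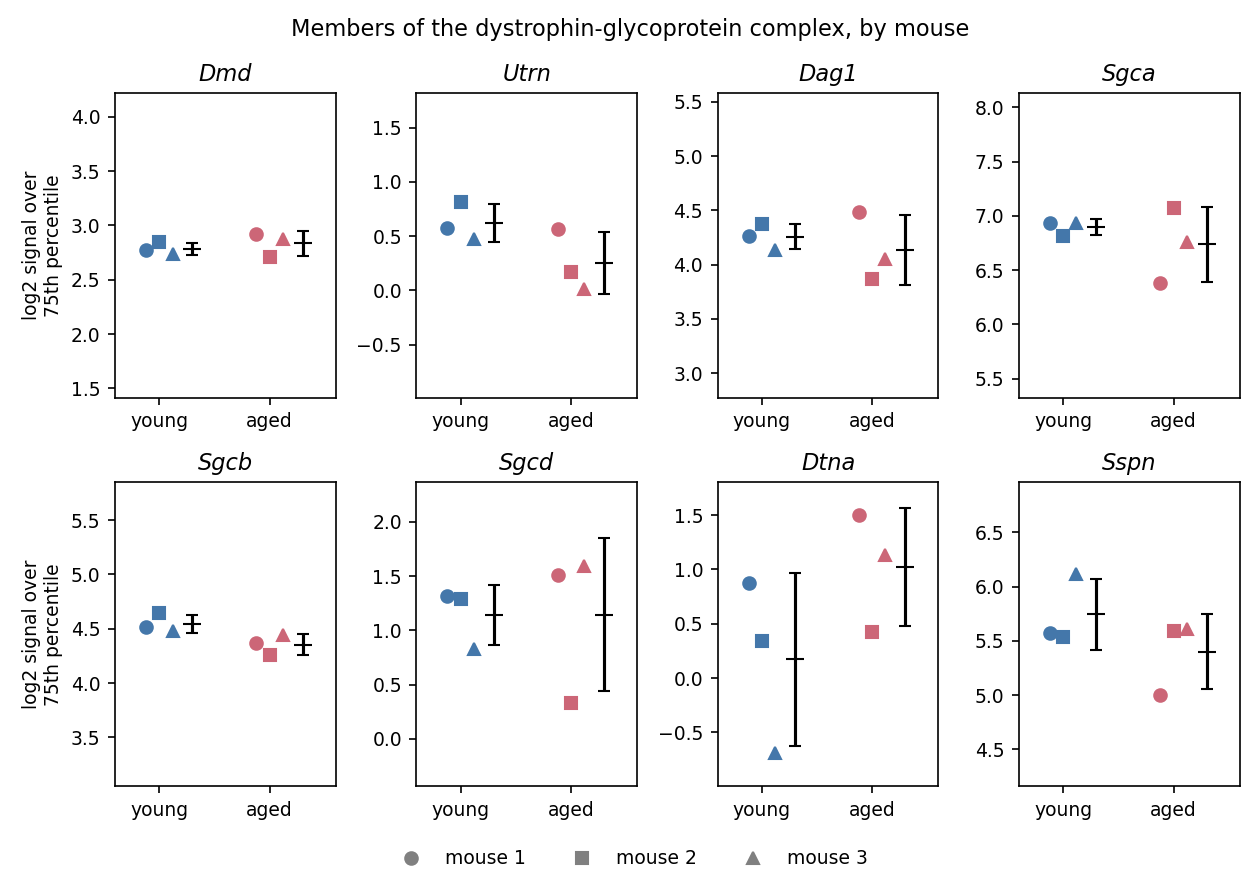
Level of each of the 8 members (vertical axis, log2 signal over the 75th percentile of the array, each panel spanning the same height) in 3 young (blue) and 3 aged (red) mice; symbols mark the mouse and the black bars the mean ± SD. Young and aged mice overlap in every panel but that of Sgcb, where the aged mean lies 0.19 lower, and the values of Dtna spread most.

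Dystrophin, the product of Dmd, is the protein that ties the complex to actin. The level of Dmd, in order of mouse number, was 2.77, 2.85 and 2.74 at the young age and 2.92, 2.71 and 2.87 at the old age. The lowest and the highest value were both from aged mice, so the groups overlapped. Young mice averaged 2.79 ± 0.06 and aged mice 2.83 ± 0.11 (SD, n = 3 each). The difference was 0.05 (SE 0.15, adjusted p = 0.896 in limma), with an interval from -0.31 to 0.40, which spans 0.808-fold to 1.32-fold. In its brightest probe, the average of 2 spots, Dmd varied little between mice of one age. The SD within groups there, 0.09 on the log2 scale, was at percentile 3.02 of all genes tested. On that probe all 6 mice lay within 1.16-fold of each other. The second Dmd probe had an SD of 0.15 in young and 0.11 in aged mice. The third and dimmest spread more, with 0.30 and 0.35.

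Dmd was read by 3 probes, all assigned to the same RefSeq transcript. The second probe gave a difference of -0.06 and the third -0.08, each with overlapping groups, so the sign of this small difference depended on the probe. It also turned to -0.02 with another background correction (normexp), to -0.10 with arrays scaled to their median and to -0.03 with the mean of the 3 probes. The gene is transcribed from several promoters, of which the RefSeq promoter table (GRCm38.p6) lists 2. The files do not place a probe within the transcript, so the starts that feed each probe were not separated. The 250 bases before each listed start are shown because they differ in kind, 45.2% and 60.0% G and C, 5′ to 3′ on the plus strand. Capitals mark the matches, on either strand, to any of the E-box (CANNTG), the N-box (CCGGAA), the TATA box (TATAAA), the GC box (GGGCGG) and the CArG box, which may overlap each other.

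Dmd, first listed start, chrX:82948620-82948869: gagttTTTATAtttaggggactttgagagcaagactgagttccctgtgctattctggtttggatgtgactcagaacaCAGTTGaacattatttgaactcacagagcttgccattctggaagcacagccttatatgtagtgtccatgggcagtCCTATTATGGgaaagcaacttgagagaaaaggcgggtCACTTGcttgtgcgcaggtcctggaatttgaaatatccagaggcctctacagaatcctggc

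Dmd, second listed start, chrX:85048045-85048294: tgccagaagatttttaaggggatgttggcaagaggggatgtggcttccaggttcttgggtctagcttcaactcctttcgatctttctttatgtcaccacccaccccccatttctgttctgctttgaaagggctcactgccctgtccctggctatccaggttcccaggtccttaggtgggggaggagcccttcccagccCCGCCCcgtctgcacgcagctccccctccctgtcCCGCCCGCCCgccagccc

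The first window held 2 E-boxes, 1 TATA box and 1 CArG box, and the second held 3 GC boxes and none of the others. Of all 32851 promoter windows of this length in the table, 66.2% held an E-box, 12.4% a TATA box, 32.7% a GC box and 1.47% a CArG box. Windows were taken for 7 of the 8 members, 10 windows in all, and those of Dag1 overlap each other. The selection of member windows left out a chromosome, which the shares over all windows did not. Dtna had no window in the selection, and this does not show that the promoter table lacks one. By window, 7 of the 10 held an E-box, 5 a GC box, 2 a TATA box and 1 a CArG box. By gene, the counts were 6, 4, 2 and 1 of the 7. A gene has up to 2 windows, so the counts by gene are not set against the shares of windows. The N-box held in 12% of all windows was in 0 of the 10. A match describes these letters and not the binding of a factor.

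Utrn, which encodes utrophin, had a level of 0.58, 0.81 and 0.47 in young mice and 0.57, 0.17 and 0.02 in aged mice. Aged mice 2 and 3 were below every young mouse, while aged mouse 1 was level with young mouse 1. The mean was 0.62 ± 0.17 in young and 0.25 ± 0.28 in aged mice. The difference was -0.37 (SE 0.20, adjusted p = 0.446 in limma), with an interval from -0.85 to 0.11, or 0.554-fold to 1.08-fold. Aged mice 2 and 3 were also the 2 arrays in row 2 of the slide. Within row 1, where aged mouse 1 can be set against the 3 young mice, the difference was -0.05. A second Utrn probe, assigned to a predicted transcript, was well above background on 0 of 6 arrays and gave no level.

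Dag1 encodes the single precursor that is cut into α- and β-dystroglycan, the part of the complex that binds laminin outside and dystrophin inside. Its level was 4.26, 4.37 and 4.14 in young mice and 4.49, 3.87 and 4.05 in aged mice. Aged mouse 1 was the highest of all 6 and aged mice 2 and 3 the lowest. The difference in means was -0.12 (SE 0.20, adjusted p = 0.807 in limma), with an interval from -0.61 to 0.36. It was 0.23 within row 1 of the slide and 0.01 without aged mouse 2.

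The 3 genes with a symbol whose pattern over the 6 mice was nearest to that of each of these members were found among 13843 others, by the root mean square difference of log2 values centred on each gene's mean. For Dmd these were Ssrp1, Wrnip1 and Trim39 (0.03, 0.03 and 0.04). For Utrn they were Akap13, Nudt8 and Ica1 (0.03, 0.03 and 0.04), and each of the 3 showed the same high value in young mouse 2 and low values in aged mice 2 and 3. For Dag1 they were Arhgef3, Nav1 and Fbxo5 (0.05, 0.06 and 0.06). This likeness is a description over 6 arrays that share their scaling and has no test.

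The sarcoglycans form a subcomplex of single-pass membrane proteins beside dystroglycan, and 3 genes of the members belong to it. Sgca (α-sarcoglycan) had a level of 6.94, 6.81 and 6.94 in young mice and 6.38, 7.07 and 6.76 in aged mice. The aged mice spread on both sides of the young mice. The difference was -0.16 (adjusted p = 0.755 in limma), with an interval from -0.66 to 0.34, and it was 0.02 without aged mouse 1. The second Sgca probe gave a difference of 0.08 in the other direction, with its lowest value, 5.63, in young mouse 3.

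Sgcb (β-sarcoglycan) was the one member whose groups did not overlap. Its level was 4.52, 4.64 and 4.48 in young mice and 4.37, 4.26 and 4.44 in aged mice, so the highest aged mouse lay just below the lowest young one. The difference was -0.19 (SE 0.15, adjusted p = 0.579 in limma, exact two-sided permutation p = 0.1), with an interval from -0.55 to 0.16, or 0.684-fold to 1.12-fold. The other 2 Sgcb probes gave -0.07 and -0.08, and in both the groups overlapped. Of all genes tested, 21.8% had groups that did not overlap, 13.9% with all aged mice lower and 7.92% with all aged mice higher, against 1 and 0 of 8 members.

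Sgcd (δ-sarcoglycan) had a level of 1.32, 1.29 and 0.83 in young mice and 1.51, 0.33 and 1.596 in aged mice. The means were 1.14 ± 0.28 and 1.15 ± 0.71. Aged mouse 2 was the lowest of all and the other aged mice were the highest, so that equal means came from unequal mice. The difference was 0.00 (adjusted p = 0.999 in limma), and its interval ran from -0.86 to 0.86, or 0.550-fold to 1.82-fold. A second Sgcd probe showed the same order in the aged mice, at -0.40, -1.32 and -0.24, against -0.47, -0.63 and -0.93 in young mice. The interval of Sgcd was wider than that of Dmd on both sides, so near-equal means bound its difference less.

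Sspn encodes sarcospan, a membrane protein that crosses the membrane several times and binds the sarcoglycans. Its level was 5.57, 5.54 and 6.12 in young mice and 4.999, 5.59 and 5.61 in aged mice. Young mouse 3 was the highest and aged mouse 1 the lowest, and the other 4 mice lay between 5.54 and 5.61. The difference was -0.34 (SE 0.25, adjusted p = 0.559 in limma), with an interval from -0.94 to 0.26. It was -0.14 without aged mouse 1 and -0.16 without young mouse 3.

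Dtna encodes α-dystrobrevin, a relative of dystrophin that binds it and the syntrophins and helps to keep acetylcholine receptors in place at the synapse. Its level was 0.87, 0.34 and -0.69 in young mice and 1.498, 0.43 and 1.13 in aged mice. Young mouse 3 stood lowest and aged mouse 2 lay inside the range of the young mice. The mean was 0.17 ± 0.80 in young and 1.02 ± 0.54 in aged mice. The difference of 0.85 (SE 0.45, adjusted p = 0.433 in limma, exact two-sided permutation p = 0.2) had an interval from -0.22 to 1.91, or 0.860-fold to 3.76-fold. The 6 mice spanned 4.57-fold, and the SD within groups was at percentile 91 of all genes. Without young mouse 3 the difference was 0.41, and without young mouse 1 it was 1.20.

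**Figure D2:**
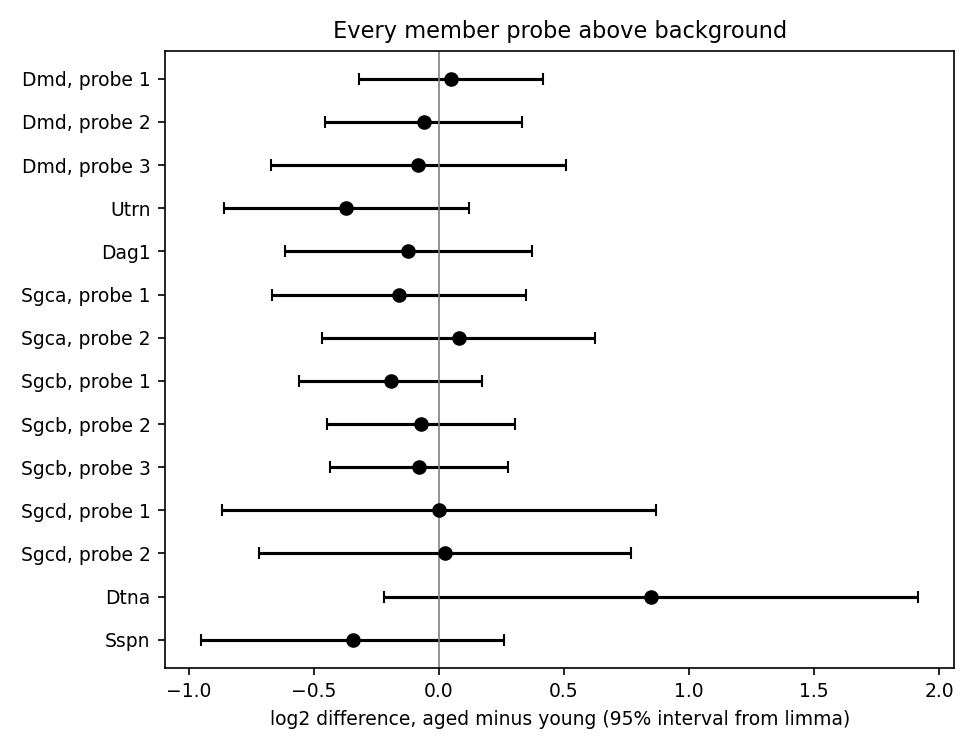
Difference between aged and young mice for each of the 14 member probes well above background (horizontal axis, log2, aged minus young), as the estimate with its 95% interval from limma; probes of one gene are numbered by brightness. Every interval includes 0, and that of Dtna is the widest, up to 1.92.

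Across the 8 members the mice of one age differed about as much as for other genes, with a median SD within groups of 0.25 against 0.28 over all genes tested. Measured from the young mean, the median member lay at 0.00, 0.10 and -0.09 in young mice and at 0.04, -0.22 and -0.12 in aged mice. Aged mice 2 and 3, the arrays of row 2, had the lowest medians, with 6 and 5 of the 8 members below the young mean, but young mouse 3 of row 1 was close to aged mouse 3, with 6 of 8 below. With the row as a block the median difference of the members was 0.04 in place of -0.14. Of single members, Sgca moved to -0.52, Sspn to -0.74, Sgcd to 0.37 and Dtna to 1.33, while Sgcb stayed at -0.18 and Dmd was at 0.14. In that fit 0 members passed the threshold. It rests on 1 aged mouse against 3 young mice, and row 2 holds aged mice only, so no value could be had within it.

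Of 10 further subunits and partners of the complex, most had a lower mean in aged mice, and 0 passed the test. They were Sgce and Sgcz (sarcoglycans), Sntb1, Sntb2, Sntg1 and Sntg2 (syntrophins), Dtnb, Drp2, Nos1 and Cav3. Of these 8 could be tested, 7 had a lower mean and 1 a higher one, and the median difference was -0.43 against -0.06 over all genes. The lists were not tested against each other. At an unadjusted p under 0.05 in limma, 4 of 8 were lower and 0 higher, against 8.36% of all genes lower, and in the same 4 genes the groups did not overlap, against 13.9%. The first of these counts was 1 of 8 without young mouse 2, without aged mouse 2 or with the slide row as a block, and 2 of 8 with the mean of a gene's probes, a mean-variance trend, the replicate block, or without young mouse 1 or aged mouse 3. The 4 are Sntb1, Drp2, Sntb2 and Dtnb, of which Sntb2 and Dtnb are named after their values were seen.

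**Figure D3:**
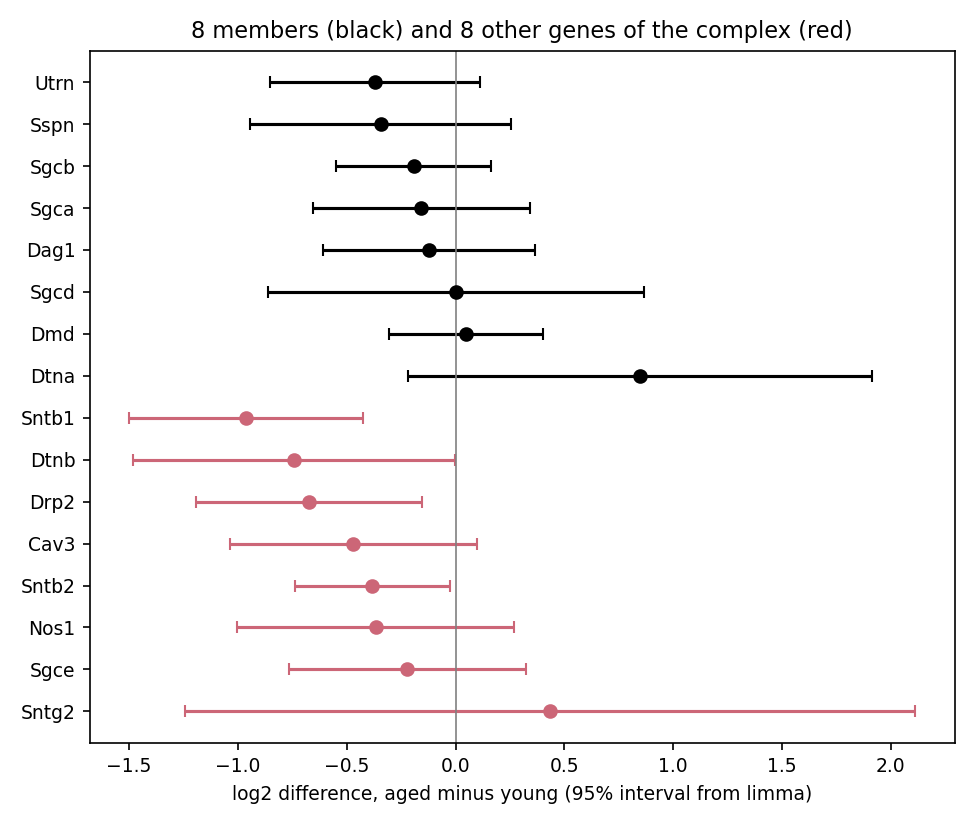
Difference between aged and young mice (horizontal axis, log2, aged minus young) with its 95% interval from limma for the 8 members (black) and the 8 other genes of the complex that could be tested (red). Intervals of the members all include 0, and those of Sntb1, Drp2, Sntb2 and Dtnb end below 0 before adjustment.

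Syntrophins are adaptor proteins that dock on dystrophin and dystrobrevin and hold nitric oxide synthase and channels at the membrane. Sntb1 (β1-syntrophin) had a level of -2.28, -2.76 and -2.28 in young mice and -3.07, -3.63 and -3.51 in aged mice. All aged mice were below all young mice, by 0.513-fold in the mean (SE 0.23 on the log2 scale, adjusted p = 0.162 in limma). The probe was well above background on all 6 arrays but dim, and with normexp the difference was -0.36 in place of -0.96. Sntb2 (β2-syntrophin) was at -0.52, -0.61 and -0.47 in young mice and -1.03, -0.89 and -0.83 in aged mice, again with no overlap (0.767-fold, adjusted p = 0.322 in limma).

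Dtnb (β-dystrobrevin), the relative of the member Dtna, had a level of -2.14, -2.23 and -1.93 in young mice and -2.33, -2.67 and -3.52 in aged mice. Aged mouse 3 was the lowest. The mean difference was -0.74 (adjusted p = 0.346 in limma), and in a second probe it was -0.38 with overlapping groups. The interval of Dtna ran from -0.22 to 1.91 and that of Dtnb from -1.48 to 0.00. Drp2, a short relative of dystrophin that works with periaxin in myelinating Schwann cells, was at -0.96, -0.64 and -0.77 in young mice and -1.06, -1.66 and -1.66 in aged mice (0.627-fold, adjusted p = 0.260 in limma). A second Drp2 probe gave -0.19 with overlapping groups. Of 10 Schwann cell markers 8 had a lower mean in aged mice and 1, Prx (periaxin), passed the threshold, by -1.29. In 7 of the 10 all aged mice were below all young mice, against 13.9% of all genes. Mbp (myelin basic protein) went the other way, 1.33 higher and with no overlap (adjusted p = 0.053 in limma). The summed level of the list was 26.0 to 45.8 times the 75th percentile in young and 25.4 to 42.4 times in aged mice, and no marker was at 0. The part of these cells in the value of Drp2 was not tested.

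**Figure D4:**
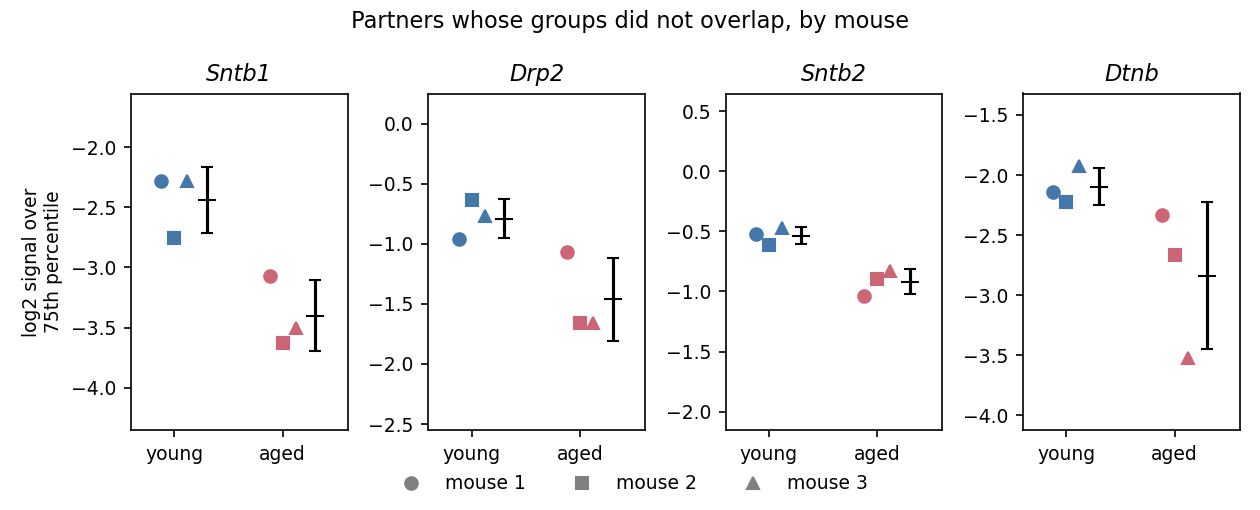
Level (vertical axis, log2 signal over the 75th percentile of the array, each panel spanning the same height) of the 4 partners whose groups did not overlap, in 3 young (blue) and 3 aged (red) mice; symbols mark the mouse and black bars the mean ± SD. In Sntb1, Drp2, Sntb2 and Dtnb every aged mouse lies below every young mouse, and none of the 4 passed the adjusted threshold.

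The 4 genes kept a lower mean under every alternative run, and no adjusted p went under 0.084, the value of Sntb1 at its lowest. Since their groups did not overlap, leaving out a mouse or using the slide row could not turn the sign. The filter settings, the series matrix, the mean-variance trend and the replicate block gave the main estimate again. Those fits therefore add nothing on the direction. With the row of the slide as a block Sntb1 was at -0.63, Drp2 at -0.27, Sntb2 at -0.50 and Dtnb at -0.23. With normexp background correction Sntb1 was at -0.36, Drp2 at -0.32, Sntb2 at -0.33 and Dtnb at -0.39. Sgcz and Sntg1 were not well above background on enough arrays to be tested.

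Laminins, perlecan and agrin are the matrix ligands of dystroglycan. Of 11 ligand genes 8 had a lower mean in aged mice and 3 a higher one, and 0 passed the threshold. The median was -0.11. With the slide row as a block the means were 4 lower and 7 higher, with a median of 0.12. At an unadjusted p under 0.05 in limma, 3 of 11 were lower and 0 higher, against 8.36% of all genes lower. Lamc1, the γ1 chain found in most laminins, was at 5.13, 5.21 and 5.15 in young mice and 4.55, 4.23 and 4.52 in aged mice (0.603-fold, adjusted p = 0.150 in limma). Agrn (agrin), which also clusters acetylcholine receptors, was at 2.57, 2.58 and 2.75 in young mice and 1.598, 2.001 and 1.05 in aged mice (0.472-fold, adjusted p = 0.163 in limma). Lamb1, the third and named after its values were seen, was 0.719-fold (adjusted p = 0.303 in limma). In all 3 the aged mice lay below the young mice with no overlap, against 13.9% of all genes.

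Matrix is made largely by fibroblasts, and 6 of 7 fibroblast markers had a lower mean in aged mice. Their summed level was 448 to 509 times the 75th percentile in young mice and 211 to 345 times in aged mice, with 0 of 7 past the threshold and none at 0. Whether this had a part in the values of the ligands was not tested. Of 8 endothelial markers 5 had a lower and 3 a higher mean, with a summed level of 90.5 to 123.9 in young and 65.5 to 84.0 in aged mice. That sum is mostly Egfl7, the brightest, whose own groups overlapped. In 1 of the 8, Cdh5 (-0.79), all aged mice were below all young mice, against 13.9% of all genes. Utrn is also expressed in vessel walls, and the part of those cells in its value was not tested.

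Enzymes that build the laminin-binding sugar of α-dystroglycan showed no common direction. Of 17 genes 16 could be tested, 9 with a higher and 7 with a lower mean, and 0 passed the threshold. The median was 0.06. With arrays scaled to their median it was -0.09, with 7 higher and 9 lower means. At an unadjusted p under 0.05 in limma, 2 of 16 were higher and 0 lower, against 6.07% of all genes higher. The count of higher genes was 0 with median scaling, with the slide row as a block and without aged mouse 3, where 1 was lower, and 1 without young mouse 1, young mouse 2 or aged mouse 2. Dpm2, a subunit of dolichol-phosphate-mannose synthase, was at 2.77, 2.81 and 2.52 in young mice and 3.10, 3.17 and 3.45 in aged mice (1.46-fold, adjusted p = 0.261 in limma). Gmppb, which makes GDP-mannose, was at 0.23, 0.35 and 0.68 in young mice and 0.81, 0.92 and 1.17 in aged mice (1.46-fold, adjusted p = 0.286 in limma). In both, all aged mice were above all young mice.

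On the inner side, 11 cytoskeletal genes that lie next to the complex gave 5 higher and 6 lower means and a median of -0.04, with 0 past the threshold. Krt8 (keratin 8), an intermediate filament protein of the costamere, was well above background on 0 of 3 arrays of young mice and on 3 of 3 of aged mice. Its level in young mice is thus only a bound, and it was at least 5.37-fold higher in aged mice (adjusted p = 0.056 in limma). It passed the filter on dim probes through the aged mice alone and so had to differ, and its p supports nothing. Krt8 went past the threshold with the percentile taken over detected probes, with a mean-variance trend and without aged mouse 1. Flnc (filamin C), which binds actin and the sarcoglycans, was at 6.99, 7.17 and 6.83 in young mice and 7.52, 7.28 and 8.38 in aged mice (1.66-fold, adjusted p = 0.337 in limma). A bound is the mean of the brighter group over the higher, on each array, of the probe's own signal and the lowest signal among probes well above background, and the medians of the lists are the same with such genes at their bound.

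At the neuromuscular junction, where utrophin and α-dystrobrevin gather, 11 synaptic genes gave 6 higher and 5 lower means, a median of 0.33 and 0 calls. The median was 0.09 with normexp, 0.05 with probes above background on all 6 arrays, 0.18 with median scaling and 0.19 without aged mouse 1, where 1 gene, Chrna1, passed the threshold. At an unadjusted p under 0.05 in limma, 5 of 11 were higher, against 6.07% of all genes, and 1, Colq (named after its value was seen), was lower (-0.50), against 8.36%. Chrng, the γ subunit of the fetal acetylcholine receptor, was well above background in 0 of 3 young and 3 of 3 aged mice, at least 2.505-fold higher (adjusted p = 0.142 in limma). Like Krt8 it passed the filter through the aged mice alone, which leaves 4 of the other 10 genes higher. Chrnd, the δ subunit, was at 0.43, 1.07 and 0.65 in young mice and 1.73, 2.24 and 1.61 in aged mice (2.21-fold, adjusted p = 0.149 in limma). The other 3, named after their values were seen, were Chrna1 (3.56-fold), Chrnb1 (3.36-fold) and Musk (1.99-fold). In these 4 measured genes all aged mice were above all young mice, against 7.92% of all genes. Utrn and Dtna, the members of the same site, had overlapping groups, at -0.37 and 0.85.

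**Figure D5:**
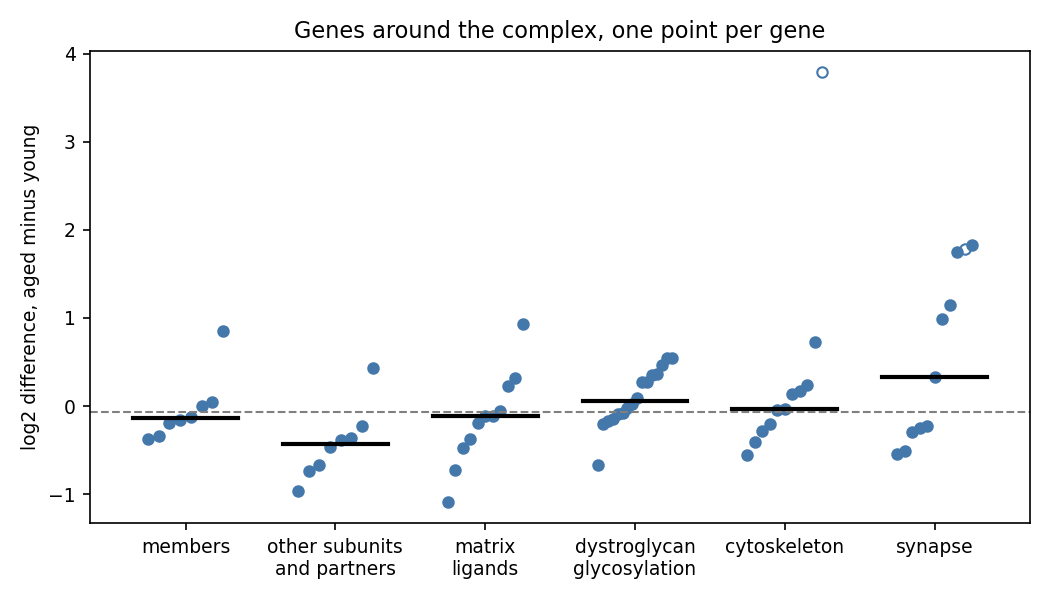
Difference between aged and young mice (vertical axis, log2, aged minus young), 1 point per gene tested, for the members and 5 lists of genes around them; black bars are medians, the dashed line is the median of all genes (-0.06) and open circles are genes well above background on no array of the young mice (Krt8 and Chrng), whose value is no measured fold. The members lie between -0.37 and 0.85 with a median of -0.14, and that of the other subunits is -0.43.

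The other marker lists gave these counts. Of 5 genes of regenerating fibres 4 had a higher mean in aged mice. At an unadjusted p under 0.05 in limma 3 were higher, against 6.07% of all genes, and 0 after adjustment. These 3 were Myog (myogenin) at 2.47, Myh3 (embryonic myosin) at 1.66 and Ncam1 at 0.98. Groups overlapped in Myod1, at 1.20, and in Myh8 (perinatal myosin), at -0.18. The Myh8 probe was bright at both ages, with levels from 8.92 to 9.57, and how specific it is was not tested. Of 7 macrophage markers tested 5 had a higher mean, and in 3, Cd68 (2.12-fold), Adgre1 (1.56-fold) and Mrc1 (1.38-fold), all aged mice were above all young mice, against 7.92% of all genes, with 0 past the threshold. Their summed level was 38.4 to 45.7 in young and 41.2 to 43.2 in aged mice, but it is mostly that of Itgam and Csf1r, the brightest and the ones with a lower mean. Of 8 smooth muscle markers 6 had a lower mean, and in 3, Pdgfrb (-0.40), Myh11 (-0.52) and Rgs5 (-0.48), all aged mice were below all young mice, against 13.9% of all genes, with 0 past the threshold. Their summed level was 206 to 265 in young and 210 to 223 in aged mice, of which the largest share is Des (desmin), also a gene of muscle fibres, which was 0.17 higher with no overlap. The marker genes named beside the lists were chosen after their values were seen. All 9 fibre genes had a lower mean, by -0.01 to -0.33, with 0 past the threshold, and their summed level was 6731 to 8166 in young and 5597 to 7263 in aged mice. The part of these levels in the values of the members was not tested.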

How the data were processed

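Total RNA from gastrocnemius of 3 young and 3 aged mice was hybridized to single-colour Agilent arrays. The authors deposited, for each array, Feature Extraction output as intensity on a linear scale; the processed signal had its background subtracted by that software and was not scaled between arrays. The submitters' notes name version 9.5 and the file header 11.0.1.1. The deposited series matrix held the same intensities (largest log2 difference 0). Genome build and test for the arrays are not given in the sources used here.

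Of 62976 spots per array, 59305 were not controls. Flagged spots (161 to 212 per array) were dropped, log2 signals of a probe's spots were averaged (55681 probes, 12 only flagged and left out), and the 75th percentile of each array (209 to 311) was subtracted. Accessions mapped to a symbol through the RefSeq genes of GRCm38.p6 for 28325 probes. Probes well above background on at least 3 of 6 arrays were kept (28002), and a gene was its brightest kept probe (20900). The test was that of limma 3.58.1 under R 4.3.3 (intercept and age), Benjamini-Hochberg adjustment and a threshold of 0.05; the script was tested on simulated data. Single members were also compared by an exact two-sided permutation test. Other assays of the study were not analysed here. Some genes are not reported here.

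The members and lists were chosen with earlier results of these data known. Genes named are all members, and in each of the 5 pathway lists (not the marker lists) those past the threshold and the 2 with the smallest unadjusted p; for Dmd, Utrn and Dag1 the 3 nearest genes are added, and exceptions are marked. Alternatives were normexp (offset 50, on the median spot signal), quantile normalization, median scaling, the percentile over detected probes, no filter or all 6 arrays, the mean of probes, the series matrix, a mean-variance trend, the slide row or the replicate number as a block, leaving out each mouse, and, chosen after seeing the data, row 1 alone. Precision is limited by 6 arrays.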

Additional observations from a re-analysis of the deposited data

How the results depend on the processing

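Under the 18 alternatives run, 0 of the 8 members passed the threshold in each, with adjusted p from 0.223 to 0.999. Utrn (-0.53 to -0.05), Sgcb (-0.34 to -0.10) and Sspn (-0.74 to -0.14) kept a lower and Dtna (0.41 to 1.33) a higher mean in all of them. The groups of Sgcb did not overlap, so leaving out a mouse or using the slide row could not turn its sign. Dmd turned to -0.0167 with normexp, -0.0993 with median scaling and -0.0311 with the mean of probes, and Sgcd to -0.0081 with quantile normalization and -0.146 with median scaling. Median scaling moved the median of all genes from -0.06 to -0.21, that of the members to -0.2878, of the ligands to -0.2562 and of the further subunits and partners to -0.5737, which was -0.3049 with normexp. With slide row as a block, and likewise within row 1, Dag1 was at 0.2286, the members' median at 0.041 and that of the ligands at 0.1227. Without 1 mouse at a time, Dmd ranged from 0.0044 to 0.1108, Dag1 from -0.2981 to 0.012 (above 0 without aged mouse 2), Sgca from -0.3266 to 0.0207 (above 0 without aged mouse 1) and Sgcd from -0.2235 to 0.4092 (below 0 without young mouse 3, aged mouse 1 or aged mouse 3). The cause was not tested.

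The number of genes past the threshold, 53, became 8 with no filter on dim probes, 35 with probes above background on all 6 arrays, 5 with the replicate block and 0 within row 1, and ran from 1 (without aged mouse 3) to 199 (without aged mouse 1) when a mouse was left out, with 8 or 9 without any of the others. Row 1 alone and the fits without a mouse compare fewer samples. The replicate numbers did not pair the samples: deviations of same-numbered mice correlated at -0.06, -0.27 and 0.03, and with these numbers as a block no member was called. The signal over background limits the dim genes, such as Krt8 and Chrng, to a bound in young mice.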
